A study of Mus musculus with 18 samples.

Results

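Trp63 and 9 contractile genes, Acta2, Actg2, Myh11, Cnn1, Oxtr, Tagln, Mylk, Tpm2 and Myl9, were followed across 18 mouse mammary tumors. The genes were chosen by name, as genes known from the basal and myoepithelial layer of the mammary gland, and are 10 of the 57126 genes in the count table. All 10 passed the filter on low counts in every comparison. The bulk RNA of each tumor had been sequenced with a stranded kit, after depletion of ribosomal RNA by the methods of the study, although the labels call the libraries mRNA-Seq. There were 7 MaP R172H/- tumors, 5 MaP R245W/- tumors and 6 MaP -/- tumors from 4 mice. The study asked how the p53 missense mutants R172H and R245W shape mammary tumors, with tumors that lost both copies of Trp53 as the comparison.

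All mice were females of an F1 cross of BALB/c and C57BL6/J and received, as young adults, adenovirus carrying Cre recombinase (Ad-Cre) into the mammary ducts. MaP R172H/- and MaP R245W/- ductal cells keep 1 mutant allele of Trp53 and no other copy, and MaP -/- ductal cells keep none. Cre acted only in the ductal epithelium, so stroma and immune cells in each tumor kept wild-type Trp53. The Rosa26LSL-TdTomato/+ reporter allele was carried by 3 MaP R172H/- mice, 3 MaP R245W/- mice and no MaP -/- mouse. Tumors were taken when the mice were sacrificed because of tumor burden, months after the injection. The study gives that time for each mouse, and it was not used here. The MaP R172H/- libraries were read on a HiSeq instrument and all others on a NovaSeq instrument, so genotype and platform cannot be told apart in comparisons with MaP R172H/- tumors. Tumor subtype also follows genotype: the MaP R172H/- tumors were luminal B (6) or HER2-enriched (1), and the other 11 were triple-negative.

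The ducts of the mammary gland have an inner luminal layer, which secretes milk, and an outer basal layer of myoepithelial cells, which squeeze it out when oxytocin arrives. The transcription factor p63, encoded by Trp63, is a relative of p53 that sets up and maintains basal cells of many epithelia. Myoepithelial contraction uses the same actin and myosin machinery as smooth muscle, and pericytes, vascular smooth muscle cells and activated fibroblasts express many of these genes too, while p63 is not a gene of those cells. Contractile genes are therefore described apart from Trp63. In bulk RNA, fewer cells of a type and less RNA per cell cannot be told apart.

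Many smooth muscle genes are switched on by serum response factor (SRF), which binds a short element called the CArG box. Promoters of 6 of the 10 genes had an entry among RefSeq promoter sequences of build GRCm38.p6. Trp63, Actg2, Myh11 and Tagln had none. The search was for CCNNNNNNGG with at least 5 of the 6 inner bases A or T on both strands, in the 250 bases before and 50 bases after the start. Acta2 and Myl9, each with 2 such boxes, are shown because they are the contractile genes whose boxes can be seen in these windows; the capitals mark the boxes, and the 250 bases before the start are printed 5′ to 3′ on the strand of the gene.
Acta2, chr19:34255374-34255623, minus strand: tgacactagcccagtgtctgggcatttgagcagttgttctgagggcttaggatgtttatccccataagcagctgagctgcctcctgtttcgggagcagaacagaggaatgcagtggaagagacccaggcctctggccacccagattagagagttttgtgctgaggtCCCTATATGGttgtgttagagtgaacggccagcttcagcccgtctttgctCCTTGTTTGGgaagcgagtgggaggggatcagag
Myl9, chr2:156775214-156775463, plus strand: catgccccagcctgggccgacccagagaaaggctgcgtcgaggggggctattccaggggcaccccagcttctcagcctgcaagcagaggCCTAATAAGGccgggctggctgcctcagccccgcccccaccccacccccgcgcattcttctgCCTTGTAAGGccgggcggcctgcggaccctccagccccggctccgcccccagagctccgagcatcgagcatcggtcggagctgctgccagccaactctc
The Acta2 boxes begin 84 and 34 bases before the start, and the Myl9 boxes 161 and 99 bases before it. Of 32851 promoters of the same length, 9.98% hold at least 1 such box. A match of letters is a description and not a measured binding site, and the windows of Cnn1, Oxtr, Mylk and Tpm2 held none.

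Trp63 (ENSMUSG00000022510.15, GRCm39 chr16:25502513-25710852) spanned a 174-fold range within the MaP R172H/- group alone. In MaP R172H/- tumors the lowest level was 1.08 CPM (reads of the gene scaled by library size) in YZ11, the median 25.7 CPM and the highest 188 CPM in YZ7. The second highest was YZ4 with 119.7 CPM. These 2 tumors stood above every other tumor of the series, and 3 others of the group (YZ2, YZ3 and YZ11) had less than 3 CPM.

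In MaP R245W/- tumors, Trp63 was at 51.8 CPM in JM1233, 1.36 in JM1564, 1.69 in RM0014, 1.02 in JM1126 and 4.05 in JM1133. A single tumor of 5 was thus high. In MaP -/- tumors the lowest level was 2.30 CPM in JM779-T1, the median 5.89 CPM and the highest 29.2 CPM in JM833-T1. The group means were 52.4 ± 72.9 CPM (SD, n = 7), 11.99 ± 22.3 CPM (SD, n = 5) and 9.55 ± 10.1 CPM (SD, n = 6), and all 3 groups overlapped. Counts per gene do not separate the isoforms of p63 with and without the transactivation domain.

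**Figure D1:**
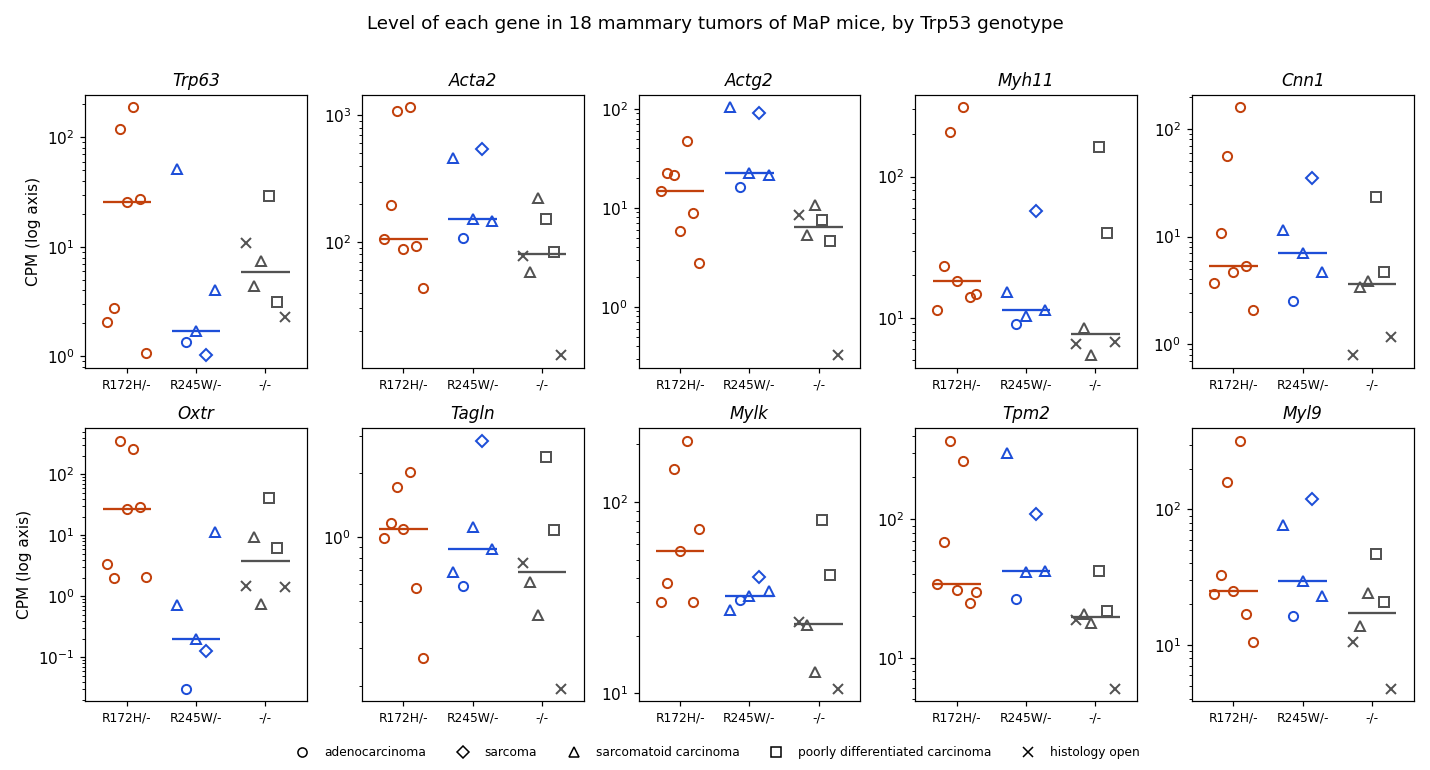
CPM of each gene (log axis) in each of 18 tumors, by Trp53 genotype. Each point is 1 tumor, its shape gives the histology, and the horizontal line is the median of the group. Trp63 and Oxtr reach their highest levels in MaP R172H/- tumors YZ4 and YZ7, while all 5 MaP R245W/- tumors lie above all 6 MaP -/- tumors for Actg2.

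Oxtr (ENSMUSG00000049112.10, GRCm39 chr6:112450644-112468040) encodes the oxytocin receptor, which triggers contraction of myoepithelial cells at milk ejection. It had the widest range of the 10 genes, with 1 count in JM1564 and 10803 counts in YZ4. Its levels in MaP R172H/- tumors were 2.01 CPM at the lowest (YZ3), 27.2 CPM at the median and 358 CPM at the highest (YZ4). YZ7 followed with 263 CPM, so the same pair of tumors led for Trp63 and Oxtr. The MaP R245W/- tumors held 0.717 CPM (JM1233), 0.0309 (JM1564), 0.201 (RM0014), 0.128 (JM1126) and 11.3 (JM1133). Levels in MaP -/- tumors ran from 0.758 CPM in JM663-T2 through a median of 3.82 CPM to 41.8 CPM in JM833-T1. Of the 5 MaP R245W/- tumors, 4 lay below every MaP -/- tumor and below every MaP R172H/- tumor, while JM1133 lay inside both ranges. For JM1233 the gap to JM663-T2 was small, 0.717 against 0.758 CPM, from 24 and 23 counts.

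The actins Acta2 and Actg2 encode the alpha and gamma actin of smooth muscle. The proteins are nearly identical to each other and to the striated muscle actins. Reads shared between these genes could be split by the counting, which was not tested, so their separate levels are given as uncertain. Acta2 (ENSMUSG00000035783.10, GRCm39 chr19:34217737-34232990) had the highest median level per length of the 10 genes, 39.7 CPM per kb. In MaP R172H/- tumors it ranged from 43.3 CPM in YZ11 through a median of 106 CPM to 1154 CPM in YZ7, with YZ4 at 1075 CPM.

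The MaP R245W/- tumors had 459 CPM (JM1233), 108 (JM1564), 152 (RM0014), 542 (JM1126) and 148 (JM1133). In MaP -/- tumors Acta2 ran from 12.8 CPM in JM779-T1 through a median of 80.3 CPM to 221 CPM in JM663-T2. The MaP R245W/- range lay inside the MaP R172H/- range, and JM779-T1 was the lowest tumor of all.

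Actg2 (ENSMUSG00000059430.15, GRCm39 chr6:83489887-83513551) followed another order. Its levels in MaP R245W/- tumors were 103.7 CPM in JM1233, 16.4 in JM1564, 22.3 in RM0014, 91.1 in JM1126 and 21.3 in JM1133. In MaP -/- tumors the lowest was 0.323 CPM (JM779-T1, 10 counts), the median 6.47 CPM and the highest 10.6 CPM (JM663-T2). The MaP R245W/- and MaP -/- groups did not overlap. MaP R172H/- tumors overlapped both, from 2.80 CPM in YZ11 through a median of 14.9 CPM to 47.0 CPM in YZ7. The ratio of Actg2 to Acta2 counts was between 0.145 and 0.226 in MaP R245W/- tumors, and between 0.0253 and 0.111 in MaP -/- tumors. In MaP R172H/- tumors it was between 0.0198 and 0.140, and the lowest ratios were those of YZ4 and YZ7 (0.0408).

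The myosin side of the machinery was led by the same MaP R172H/- tumors. Myh11 (ENSMUSG00000018830.11, GRCm39 chr16:14012399-14109236), the smooth muscle myosin heavy chain, ranged from 11.4 CPM (YZ2) through a median of 18.4 CPM to 309 CPM (YZ7) in that group. In MaP R245W/- tumors it was at 15.2 CPM in JM1233, 9.03 in JM1564, 10.4 in RM0014, 57.4 in JM1126 and 11.5 in JM1133. In MaP -/- tumors it ran from 5.44 CPM (JM663-T2) through a median of 7.64 CPM to 162 CPM (JM833-T1). High values thus came from YZ4, YZ7, JM833-T1 and JM1126, and the groups overlapped.

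Myl9 (ENSMUSG00000067818.7, GRCm39 chr2:156617084-156623579), the regulatory light chain whose phosphorylation starts contraction, ranged from 10.6 CPM through a median of 25.1 CPM to 321 CPM in MaP R172H/- tumors. Its levels were 77.3 CPM in JM1233, 16.4 in JM1564, 29.9 in RM0014, 118 in JM1126 and 23.0 in JM1133. In MaP -/- tumors it ran from 4.78 CPM through a median of 17.3 CPM to 46.7 CPM. As for Acta2, the lowest tumor was JM779-T1 and the highest was YZ7.

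Mylk (ENSMUSG00000022836.12, GRCm39 chr16:34565580-34822790), the kinase that phosphorylates this light chain, had the narrowest spread of the 10 genes in MaP R245W/- tumors, with 27.3 CPM in JM1233, 30.8 in JM1564, 32.4 in RM0014, 40.6 in JM1126 and 34.4 in JM1133. MaP R172H/- tumors ran from 30.1 CPM through 55.5 CPM to 209 CPM, and MaP -/- tumors from 10.6 CPM through 23.1 CPM to 80.9 CPM, each given as lowest, median and highest. The lower MaP R172H/- tumors lay among the MaP R245W/- tumors.

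Of the regulators of the thin filament, Tpm2 (ENSMUSG00000028464.17, GRCm39 chr4:43514697-43524949), beta tropomyosin, lies along the actin filament. Its levels in MaP R172H/- tumors were 25.0 CPM at the lowest, 33.8 at the median and 369 at the highest (YZ4). The MaP R245W/- tumors had 299 CPM (JM1233), 26.4 (JM1564), 41.8 (RM0014), 109 (JM1126) and 42.2 (JM1133), against 5.98 CPM at the lowest, 19.7 at the median and 42.3 at the highest in MaP -/- tumors. Only JM1233 and JM1126 lay above the highest MaP -/- tumor, JM833-T1.

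Cnn1 (ENSMUSG00000001349.6, GRCm39 chr9:22010512-22020926), or calponin, restrains the actin and myosin cycle. It ranged from 2.08 through 5.34 to 159 CPM in MaP R172H/- tumors and from 0.790 through 3.64 to 23.1 CPM in MaP -/- tumors (lowest, median and highest). The MaP R245W/- tumors had 11.6 CPM (JM1233), 2.53 (JM1564), 7.0 (RM0014), 34.7 (JM1126) and 4.66 (JM1133). The groups overlapped, with YZ7 far above all other tumors.

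Tagln (ENSMUSG00000032085.6, GRCm39 chr9:45840909-45847404), or SM22 alpha, binds actin and is usually abundant wherever Acta2 is. It was low in every library, with 6 to 89 counts and 0.194 to 2.85 CPM, which limits the precision of its values. Per kb of exon, Acta2 was between 40.7 and 423 times the level of Tagln in the 18 tumors, and between 1.90 and 6.43 times that of Myl9. Whether the counting left out reads of Tagln was not tested.

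**Figure D2:**
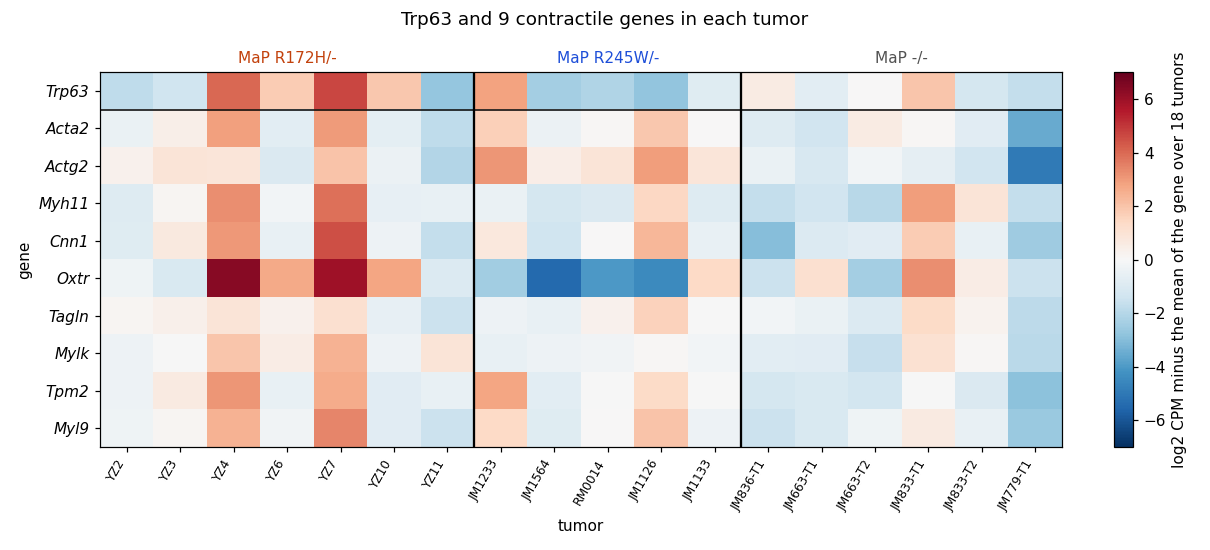
Log2 CPM of each gene minus its mean over 18 tumors (color), with genes in rows and tumors in columns by genotype. YZ4 and YZ7 are high across the rows, JM779-T1 is low for the contractile genes, and JM1126 is high for most contractile genes but low for Trp63 and Oxtr.

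Tumors differed in which of the genes they held. YZ7 was among the 3 highest tumors for all 9 contractile genes and ranked first for Trp63, and YZ4 was among the 3 highest for 7 of 9 and ranked second. JM1126, the sarcoma, was among the 4 highest tumors for 7 of 9 contractile genes, although its Trp63 was the lowest of 18 and its Oxtr rested on 4 counts. JM1233, a sarcomatoid carcinoma, came after only YZ7 and YZ4 for Trp63 and ranked first for Actg2. Its Oxtr of 0.717 CPM was close to that of the lowest MaP -/- tumor (0.758 CPM in JM663-T2). JM779-T1 was the lowest of 18 tumors for 6 of 9 contractile genes and ranked 13th for Trp63. Trp63 was between 0.0019 and 0.296 times the count of Acta2, with the lowest ratio in JM1126 and the highest in YZ10.

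In comparison with MaP -/- tumors, all 10 genes had a fitted log2 fold change above 0 in MaP R172H/- tumors, but none of them passed an FDR below 0.05 (edgeR's quasi-likelihood test, adjusted over 20954 genes). Of all genes tested, 8.4% passed in either direction and 3.67% passed as higher. At an unadjusted p below 0.05, 8 of 10 were higher and none lower, where 11.6% of all genes were higher. The 8 were Trp63, Acta2, Actg2, Cnn1, Oxtr, Mylk, Tpm2 and Myl9. A DESeq2 Wald test called Myl9, Tpm2 and Oxtr higher (3 of 10), and it called 4.94% of 29467 genes higher.

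Tpm2 was nearest to the threshold, at a log2 fold change of 2.49 (SE 0.74, edgeR FDR = 0.0529), with 3 of 7 tumors above the highest MaP -/- tumor. The largest difference was that of Oxtr, 3.30 (SE 1.40, FDR = 0.162 from edgeR), with 2 of 7 tumors above the highest MaP -/- tumor. For Trp63 it was 2.48 (SE 1.12, FDR = 0.188 from edgeR), with 2 of 7 tumors above and 2 below the whole MaP -/- range. For the 9 contractile genes the median log2 fold change was 1.99, against 0.0027 over all genes tested, and it ran from 0.33 for Tagln to 3.30 for Oxtr. No gene had groups that did not overlap, as 4.62% of all genes did.

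These differences were smaller without 2 of the 7 tumors. With YZ4 and YZ7 left out, a choice made after the data were seen, the log2 fold change of Trp63 was 0.34 and that of Oxtr 0.37. Acta2 was then at 0.091, Myl9 at 0.15 and Tpm2 at 0.85, while Myh11 (-1.19), Cnn1 (-0.18) and Tagln (-0.11) turned to below 0. None of the 10 passed without them. The values were larger when the MaP -/- tumor JM833-T1 was left out, with Myh11 at 2.69, Cnn1 at 3.64, Oxtr at 4.69 and Trp63 at 3.24, and none of the 10 passed. YZ7 also had the lowest levels of the luminal keratin Krt8 (18.05 CPM, group median 716 CPM) and of the epithelial adhesion gene Epcam (24.6 CPM, group median 805 CPM) in its group, and the highest level of the pericyte gene Rgs5 (361 CPM, group median 115 CPM). Summed over lists of markers, YZ7 had 163 CPM of 12 luminal genes, the lowest of all tumors, and 1528 CPM of 10 pericyte genes, the highest of all. Its sum of 18 basal genes (1709 CPM) and of 24 other smooth muscle genes and regulators (4746 CPM) lay below the group medians of 2071 and 6577 CPM, while for the latter sum the median of the MaP -/- group was 10021 CPM. YZ4 instead had the highest level of the basal keratin Krt5 (440.3 CPM), where YZ7 had 34.5 CPM, and its pericyte sum of 523 CPM was the group median. Their part in the contractile levels was not tested.

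**Figure D3:**
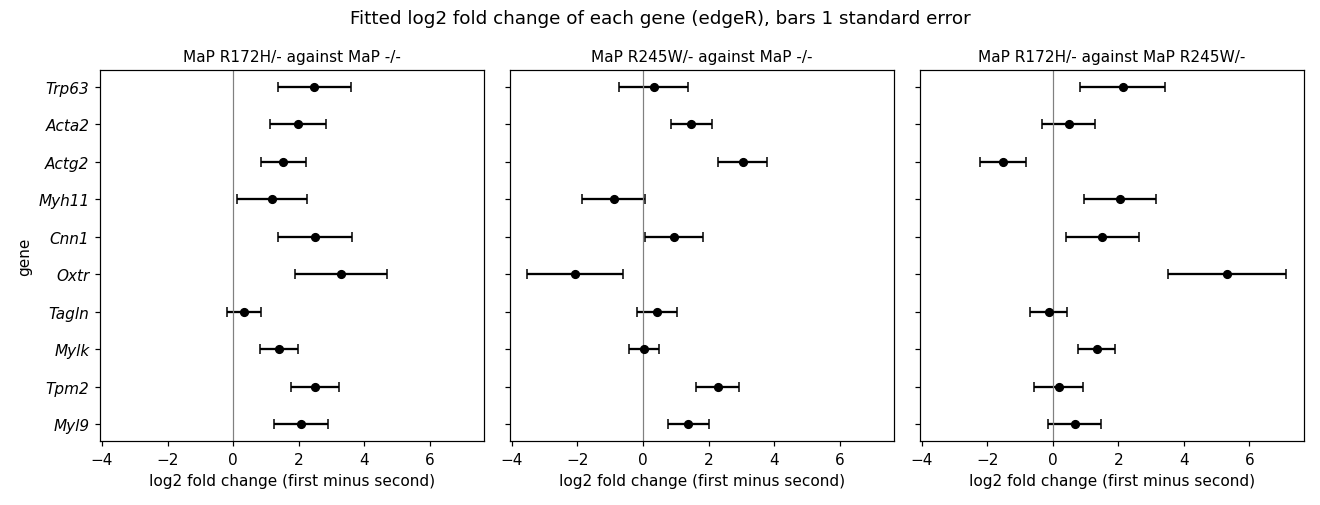
Log2 fold change of each gene from edgeR (points) with 1 standard error (bars) in the 3 comparisons, the first group minus the second. All 10 points lie above 0 for MaP R172H/- against MaP -/- tumors, Actg2 has the highest value for MaP R245W/- against MaP -/- tumors (3.04), and Oxtr has the highest for the direct comparison of the mutants (5.32).

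Between MaP R245W/- and MaP -/- tumors, which were read on 1 platform, Acta2, Actg2, Tpm2 and Myl9 had log2 fold changes above 1. Cnn1 was at 0.96, Tagln at 0.42, Mylk at 0.038 and Myh11 at -0.90. The log2 fold change of Trp63 was near 0 and that of Oxtr below it. No member passed an FDR below 0.05 with edgeR, and 0% of the 21452 genes tested did. At an unadjusted p below 0.05, 4 of 10 were higher, where 5.32% of all genes were. DESeq2 called Tpm2 and Actg2 higher (2 of 10), and 0.699% of 24332 genes.

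Actg2 had a log2 fold change of 3.04 (SE 0.75, unadjusted p = 0.00159, FDR = 0.36 from edgeR). It was the only one of the 10 genes whose groups did not overlap, as 0.475% of all genes did with the first group higher. For Tpm2 the value was 2.28 (SE 0.65, edgeR FDR = 0.36), Acta2 of 1.48 and Myl9 of 1.38. Oxtr was at -2.07 (SE 1.46, FDR = 0.585 from edgeR), with 4 of 5 tumors below the lowest MaP -/- tumor, JM1233 only just. The value of Oxtr was -5.23 without JM1133 and -0.68 without JM833-T1. Trp63 was at 0.32 (SE 1.06) and turned to -2.24 without JM1233, the single high tumor.

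JM1233 also held 476 CPM of the skeletal muscle actin Acta1 and 207 CPM of Des, which encodes the muscle filament desmin, where MaP -/- tumors reached 2.47 CPM and 11.6 CPM. The sum of 20 skeletal muscle genes was 7438 CPM in JM1233, 637 CPM in JM1133 and at most 215 CPM in MaP -/- tumors. Without JM1233 and JM1133, chosen after the data were seen, the log2 fold change of Actg2 was 2.81 and that of Tpm2 1.48. JM1126, the other tumor with high Actg2, had 17.7 CPM of Acta1. It had the highest sum of 12 fibroblast genes, 35180 CPM, where the MaP R245W/- median was 7949 CPM and MaP -/- tumors reached 8600 CPM. The part of fibroblasts, skeletal muscle and the other cells of these lists in the levels of the contractile genes was not tested.

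In the direct comparison of the mutants, fitted over all 18 tumors, no member passed an FDR below 0.05 with edgeR, while 9.4% of 22481 genes did. At an unadjusted p below 0.05, Oxtr and Mylk were higher and Actg2 was lower in MaP R172H/- tumors, where 11.4% of all genes were higher and 14.6% lower. DESeq2 called 1 of the 10, Oxtr, as higher, and 4.76% of 28930 genes. The log2 fold change of Oxtr was 5.32 (SE 1.80, FDR = 0.0711), and all but 3 of the MaP R172H/- tumors lay above the highest MaP R245W/- tumor. Without JM1133, the 1 MaP R245W/- tumor above 1 CPM, it passed with a log2 fold change of 8.48 (FDR = 0.0209).

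The log2 fold change of Trp63 was 2.13 (SE 1.29, FDR = 0.312 from edgeR), which became 4.69 without JM1233 (FDR = 0.0465 from edgeR) and -0.026 without YZ4 and YZ7. Mylk was at 1.33 (SE 0.55, FDR = 0.135 from edgeR). Actg2 was at -1.53 (SE 0.70, FDR = 0.175 from edgeR), with 4 of 7 MaP R172H/- tumors below the lowest MaP R245W/- tumor. Of the rest, Myh11 was at 2.04 (SE 1.1), Cnn1 at 1.51 (SE 1.1) and Tagln at -0.12. Acta2 was at 0.48, Tpm2 at 0.17 and Myl9 at 0.66. Without YZ4 and YZ7, Acta2, Tpm2 and Myl9 were below 0, at -1.42, -1.47 and -1.28, and so were Myh11 and Cnn1. The comparisons share groups of tumors, so their values are given side by side and not as independent results.

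**Figure D4:**
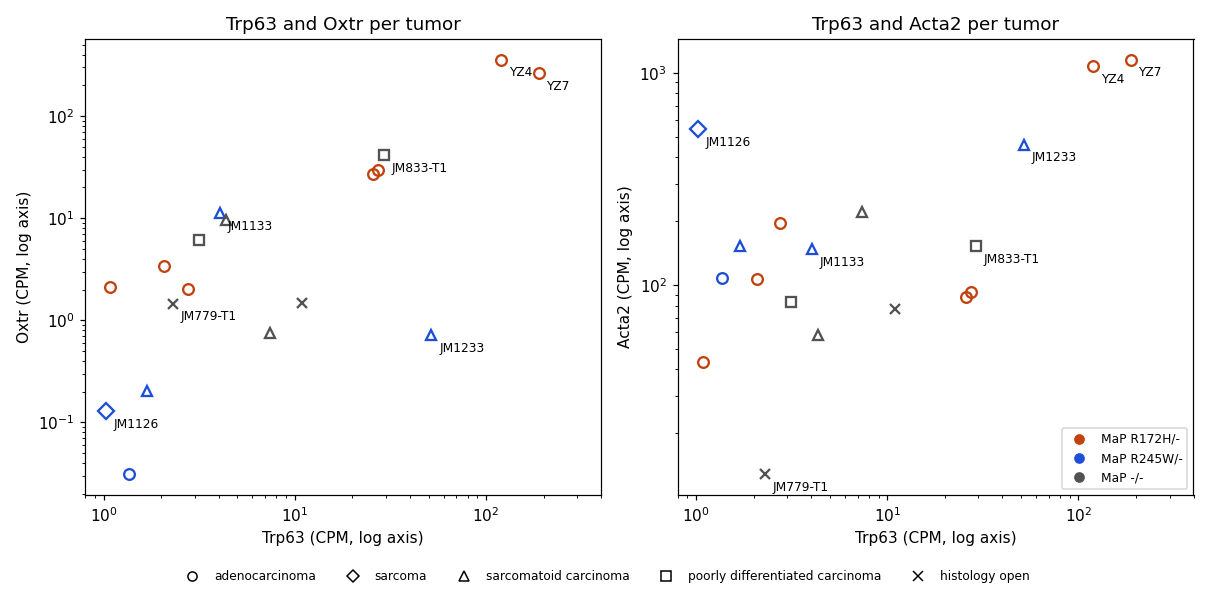
Level of Oxtr (left) and Acta2 (right) against that of Trp63 in each tumor, in CPM on log axes, with genotype in color and histology as the shape of the point. YZ4 and YZ7 are high on both axes, JM1233 has high Trp63 with Oxtr at 0.717 CPM, and JM1126 has 542 CPM of Acta2 with 1.02 CPM of Trp63.

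Whether Trp63 and each contractile gene went together from tumor to tumor was examined within each platform. Across the 7 MaP R172H/- tumors, Pearson's r of log2 CPM with Trp63 was above 0 for all 9 genes, from 0.553 for Actg2 to 0.979 for Oxtr. For Oxtr, r = 0.979 had an exact two-sided permutation p of 0.00298, or 0.0536 after Benjamini-Hochberg adjustment over the family of 18 correlations. Its Spearman's rho was 0.857 (exact permutation p = 0.0238, adjusted 0.214), and r was 0.987 without the tumors farthest from the median of Trp63, YZ11 and YZ2. For Acta2, r was 0.783 (exact permutation p = 0.0411, adjusted 0.148) and rho 0.714 (exact permutation p = 0.0881, adjusted 0.264), with r at 0.663 without the same tumors. None of the 9 passed an adjusted p of 0.05 by either measure. YZ4 and YZ7, the tumors with the highest Trp63, Oxtr and Acta2, stayed in when YZ11 and YZ2 were left out. Correlations without YZ4 and YZ7 were not computed, so how far r rests on them was not tested.

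Across the 9 mice of the MaP R245W/- and MaP -/- groups, with tumors of 1 mouse averaged, r ran from -0.137 for Tagln to 0.456 for Oxtr and none passed. For Oxtr, r = 0.456 had an exact permutation p of 0.217 (adjusted 0.39), rho was 0.617 (exact permutation p = 0.0857, adjusted 0.264), and r was 0.737 without JM1233 and JM1126. For Acta2, r was 0.188 (exact permutation p = 0.623, adjusted 0.879) and rho was -0.15 (exact permutation p = 0.708, adjusted 0.948), with r at 0.129 without the same mice. The 9 mice span 2 genotypes of 1 platform.

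Pairs of tumors from 1 mouse differed as well. JM833-T1 was higher than JM833-T2 for all 10 genes, by 9.29 times for Trp63 (29.2 against 3.14 CPM), 6.76 times for Oxtr and 4.04 times for Myh11. Its Krt5 was 50.2 CPM against 3.07 CPM, and its sum of 6 adipocyte genes was 4387 CPM against 551 CPM, the highest of all tumors. In the other mouse, JM663-T1 was higher than JM663-T2 for 5 of 10 genes. Oxtr was 12.5 times higher in JM663-T1 (9.51 against 0.758 CPM), whereas Acta2 was 0.264 times (58.1 against 221 CPM). With 1 tumor on each side there is no test of these differences.

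Histology divided the tumors as follows, in values with no test, since it follows genotype. JM779-T1 and JM836-T1 were left out, because the histology table of the study marks the other tumor of each mouse as the sequenced one. All 7 MaP R172H/- tumors were nonmetaplastic adenocarcinomas, and 7 of the 9 other tumors of known class were metaplastic. Trp63 had a median of 25.7 CPM in the MaP R172H/- adenocarcinomas and 4.36 CPM in the metaplastic tumors. The 2 nonmetaplastic MaP R245W/- tumors, an adenocarcinoma (JM1564) and a sarcoma (JM1126), had the 2 lowest values among tumors of the NovaSeq groups, 1.36 and 1.02 CPM.

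The same 2 tumors had the lowest Oxtr of all, 0.0309 and 0.128 CPM, while Acta2 was 5 times as high in the sarcoma than in the adenocarcinoma. Within the metaplastic tumors, the 2 poorly differentiated carcinomas, both from mouse JM833, had 162 and 40.0 CPM of Myh11, above all 5 sarcomatoid carcinomas (5.44 to 15.2 CPM). The sarcomatoid carcinomas ranged from 5.37 to 103.7 CPM for Actg2 and from 1.69 to 51.8 CPM for Trp63, so no single level of these genes went with that histology.

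Other genes of the basal layer and of the smooth muscle program were compared by lists. Against MaP -/- tumors, all 17 tested basal epithelial genes had a log2 fold change above 0 in MaP R172H/- tumors (median 1.20), but none passed with edgeR. The general epithelial list was placed alike, with 10 of 10 genes above 0 (median 1.05), and so was the luminal list, with 10 of 12 (median 1.07). Of the basal genes, 5 were higher and none lower at an unadjusted p below 0.05, and DESeq2 called 3 higher. The smallest p values were those of Itgb4, which anchors basal cells to the basement membrane (log2 fold change 1.32, FDR = 0.0557), and the Notch ligand Jag2 (1.79, FDR = 0.0809). Krt5 was 440.3 CPM at most in MaP R172H/- tumors (median 3.61 CPM) and at most 50.2 CPM in MaP -/- tumors (median 2.62 CPM). It reached 3.52 CPM in MaP R245W/- tumors, with 0 counts in JM1233, which allows up to 0.0896 CPM. The basal keratin Krt14 had medians of 187, 68.6 and 34.4 CPM in MaP R172H/-, MaP R245W/- and MaP -/- tumors. In JM1233 the high level of Trp63 thus stood beside 0 counts of Krt5 and 27.6 CPM of Krt14. In YZ7, the tumor with the highest Trp63, Krt14 was 34.3 CPM, the lowest of its group.

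Of 24 other smooth muscle genes and regulators, edgeR called 5 higher and none lower in MaP R172H/- tumors when these were set against the MaP -/- group. They were Srf (log2 fold change 1.47, FDR = 0.00156), the heat shock protein Hspb6 (1.46, FDR = 0.00566), Pdlim7 (1.15), Smtn, which encodes smoothelin (1.11), and Csrp1 (0.99). The list had a median of 0.61, and the last 2 were named after their values were seen, because the count was small. Among all genes tested, 3.67% were called higher. Summed over the 24 genes, the median level was 6577 CPM in MaP R172H/- and 10021 CPM in MaP -/- tumors.

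Between MaP R245W/- and MaP -/- tumors none of these 24 passed with edgeR, and 4 were higher at an unadjusted p below 0.05. Srf (0.59) and Des (3.12) had the smallest p, and both were called by DESeq2. None of 18 basal epithelial genes passed there either, with 3 higher and 1 lower at an unadjusted p below 0.05 and 0 called by DESeq2. In the direct comparison, Srf was higher (0.86, FDR = 0.0155 from edgeR) and Des lower (-3.02, FDR = 0.0166 from edgeR) in MaP R172H/- tumors. No basal gene passed with edgeR, 7 were higher at an unadjusted p below 0.05, and DESeq2 called 4 higher. Krt5 (6.56, FDR = 0.0537) and the hemidesmosome collagen Col17a1 (4.47, FDR = 0.0586) came nearest.

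Trp53, the gene targeted in these mice, had 10.8 CPM at the lowest (YZ11), 45.8 CPM at the median and 50.3 CPM at the highest in MaP R172H/- tumors. It was higher there than in MaP -/- tumors (log2 fold change of 1.58, with an FDR of 0.00794 from edgeR), where it ran from 9.43 to 21.6 CPM. YZ11 and the MaP R245W/- tumors JM1233 (11.4 CPM) and RM0014 (9.09 CPM) lay within or below the MaP -/- range. Trp73, a further member of the p53 family, was at 11.7 CPM in YZ4 and at most 2.68 CPM (JM833-T1) elsewhere. The filter on low counts removed it from every edgeR comparison. DESeq2 called it higher in MaP R172H/- tumors (median 0.206 CPM) than in MaP R245W/- tumors (at most 0.064 CPM). YZ4 and JM833-T1 were 2 of the 4 tumors with the highest Trp63. YZ7 and JM1233, the others of these 4, had 0.176 and 0.0299 CPM of Trp73.

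Markers of other cells also differed between groups, some of them through few tumors. Of 12 fibroblast genes, 3 (Fap, Pdgfra and Lum) were lower in the MaP R172H/- group than in the MaP -/- group. Over all genes, edgeR called 992 of 20954 lower there. None of 10 pericyte genes passed with edgeR, while 3, 2 and 2 were higher and 0, 0 and 1 lower at an unadjusted p below 0.05 in the comparisons in the order above, and DESeq2 called 1, in the direct comparison of the mutants. Of 17 tested skeletal muscle genes, 12 were lower in the MaP R172H/- group than in the MaP R245W/- group, where edgeR called 1460 of 22481 genes lower. Between MaP R245W/- and MaP -/- tumors, all 16 tested skeletal muscle genes had a log2 fold change above 0 (median 3.94). None of them passed with edgeR, 14 were higher at an unadjusted p below 0.05, and DESeq2 called 10 higher. The sum of 20 skeletal muscle genes was high in JM1233 (7438 CPM) and JM1133 (637 CPM). The other MaP R245W/- tumors, at 38.0 to 211 CPM, lay within the MaP -/- range of 37.4 to 215 CPM. Of 6 adipocyte genes, none passed with edgeR in either comparison with MaP -/- tumors, and all were below 0 in both. Their median was -6.65 for MaP R245W/- tumors, with 6 lower at an unadjusted p below 0.05, and -3.32 for MaP R172H/- tumors, with 3 lower. DESeq2 called 2 lower in each. It called 1991 of 29467 genes lower for MaP R172H/- and 257 of 24332 for MaP R245W/- tumors. The share of all genes lower at an unadjusted p below 0.05 is not given here. The sum of the 6 adipocyte genes was 4387 CPM in JM833-T1 and 551 CPM in JM833-T2, tumors of 1 mouse. In the other MaP -/- tumors it was at most 90.7 CPM (JM779-T1), where MaP R245W/- tumors reached 94.6 CPM (JM1126). The part of these markers in the differences of the contractile genes was not tested.

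By Spearman's rho over 18 tumors, the genes most like Trp63 were Phc3 (0.932), Klhl38 (0.86), Ehbp1 (0.856), Mss51 (0.856) and Gm5459 (0.845). Phc3, a Polycomb protein, ran from 69.1 to 167 CPM, a far narrower range than that of Trp63. The genes most like the mean standardized level of the 9 contractile genes were Nmnat3 (0.874), Cap2 (0.872), Map3k7cl (0.862), Ccnd2 (0.86) and Heyl (0.856). Of these, Ccnd2, which encodes cyclin D2, ran from 11.3 to 552 CPM and Heyl, a Notch target, from 3.61 to 38.3 CPM, both highest in YZ7. None of the 10 genes named was on both lists. Lists of 5 genes are too short to be read as a separation of Trp63 from the contractile genes. The likeness was ranked over all genes tested and is a description of the same 18 libraries.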

How the data were processed

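Bulk RNA sequencing counts of 18 mammary tumors were used. Per the labels and the methods of the study, the authors checked reads with FastQC 0.11.9, aligned them with STAR 2.7.10b to GRCm39, counted genes with RSEM 1.3.3 and GENCODE M34, and deposited raw counts as whole numbers. The strand setting of the counting is not given in the sources used here. Totals were 23113578 to 37365062 counts per tumor. Intervals of counting error are small beside the spread between tumors, except where counts are few. Such were Tagln, and Oxtr in most MaP R245W/- tumors. Names came from GENCODE M39 (56620 of 57126 genes matched).

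Fits of 2 groups set each mutant against MaP -/- tumors, and the mutants were compared in a fit of all 18 tumors, with edgeR 4.0.16 in R 4.3.3 (TMM, filterByExpr, quasi-likelihood test). Genes passed at a Benjamini-Hochberg FDR below 0.05. CPM uses TMM library sizes, and log2 CPM a prior count of 2. CPM per kb divides by the union of exons. The SE of a log2 fold change is its size divided by the square root of the F statistic. Tumors count as replicates, although 2 MaP -/- mice gave 2 tumors each, and the p-values measure the spread between tumors. Correlations used exact permutation over 7 tumors and over 9 mice, the latter in place of planned random resamples. The test was tested on simulated data. The alternatives tried were a Wald test with DESeq2 1.42.0, its size factors in edgeR, no filter, other fold change thresholds, other samples in the fit, tumors of 1 mouse summed, and each tumor left out.

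The members, lists and rule for named genes were chosen with earlier results of these data known. The rule took the 10 members; from each list of p53 family, basal and smooth muscle genes up to 3 passing genes per direction with the largest change, or up to 2 with the smallest p where none passed; 10 defining genes of cell types; and 5 genes most like Trp63 and 5 most like the contractile mean. Fap, Pdgfra, Lum, Smtn and Csrp1 were named outside it. The basal genes with the smallest p between MaP R245W/- and MaP -/- tumors are not reported here. Other steps used Python 3.11.15 (scipy 1.17.1, numpy 2.4.6, matplotlib 3.10.9, pandas 2.3.3).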

Additional observations from a re-analysis of the deposited data

Results flagged for a closer look

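Of 30 groups of tumors checked, 1 for each of the 10 genes in each genotype, 2 had a tumor that stood apart by Dixon's test, where chance flags about 1 in 20 groups, or 1.5 of 30. Actg2 in JM779-T1 was 0.323 CPM, and the next lowest of the 6 MaP -/- tumors was at 4.59 CPM (ratio of gap to range 0.749 on the log2 scale). Myh11 in JM1126 was 57.4 CPM, and the next highest of the 5 MaP R245W/- tumors was at 15.2 CPM (ratio 0.719).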

How the results depend on the processing

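The number of members passing moved from 0 to 3 (MaP R172H/- against MaP -/-), 2 (MaP R245W/- against MaP -/-) and 1 (MaP R172H/- against MaP R245W/-) with DESeq2, which also moved the calls over all genes from 1760 to 3447, from 0 to 427 and from 2114 to 3447. With 1 tumor left out it was 0 to 1 in the first and last comparison: Tpm2 passed without YZ10, Trp63 without JM1233 and Oxtr without JM1133. Without JM1233 and JM1133 it was 1 between the mutants (Oxtr), and Trp63 fell to -2.81 against MaP -/- tumors. Without YZ4 and YZ7, log2 fold changes against MaP -/- tumors turned for Myh11 (-1.19), Cnn1 (-0.18) and Tagln (-0.11). Against MaP R245W/- tumors they turned for Trp63 (-0.026), Acta2 (-1.42), Myh11 (-0.34), Cnn1 (-1.18), Tpm2 (-1.47) and Myl9 (-1.28). Both pairs were chosen after seeing the data. With 1 tumor left out, values of both signs were seen for MaP R245W/- against MaP -/- tumors in Trp63 (-2.24 to 1.09), Myh11 (-1.73 to 0.60), Tagln (-0.15 to 0.98) and Mylk (-0.15 to 0.57), and between the mutants in Acta2 (-0.077 to 0.86), Tagln (-0.33 to 0.45), Tpm2 (-0.47 to 1.09) and Myl9 (-0.25 to 1.19). Other settings turned no sign. Of the log2 fold changes under alternatives, 183 of 190, 159 of 170 and 230 of 250 kept their direction and side of the threshold. With tumors of 1 mouse summed, the FDR of Actg2 in MaP R245W/- against MaP -/- tumors was 0.7. Apart from the effect of leaving tumors out, the cause of these changes was not tested. Oxtr in 4 MaP R245W/- tumors and Tagln throughout rest on few counts, which limits their precision. No paired analysis was possible because the replicate numbers only name tumors and pair none across groups.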
